A study of Mus musculus with 4 samples.

Results

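The 31 genes described here encode the plasma proteins of blood coagulation and fibrinolysis, with the vitamin K cycle enzymes that modify some of them. They were found by gene symbol in a table of liver expression values, where each had 1 row of its own, out of 22849 symbols. All 31 had a mean of at least 1 FPKM (fragments scaled for transcript length and library size) over the libraries and were among the 10786 symbols tested. The livers came from male C57BL/6 mice, an inbred laboratory strain, on a diet of 60% fat. One group ate this diet alone (Vehicle). The other ate it with UAB126, a compound known here only by this code, at 1.2 g per kg of diet. Both were on their diet for 12 weeks. Both groups share the high fat diet, with no group on another diet or dose, and the ages of the mice are not given. Each group had 2 libraries, called replicates 1 and 2, and whether each is a different animal is not stated. The p-values therefore measure only the spread between these samples, which may be technical.

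Coagulation is a cascade of plasma proteases. Tissue factor with factor VII, or the contact system of factor XII, prekallikrein and kininogen, activates further factors until thrombin cuts fibrinogen to fibrin, the mesh of a clot. Antithrombin, the protein C system and other inhibitors limit the cascade, and plasmin, made from plasminogen, dissolves the mesh. Hepatocytes make nearly all of these proteins and secrete them into blood. Factor VIII is the main exception, being made by endothelial cells, the lining of blood vessels and liver sinusoids. Several factors work only after the enzyme encoded by Ggcx has carboxylated them with the help of vitamin K, which the enzyme encoded by Vkorc1 recycles.

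The libraries were checked before the genes were compared. Counts of marker genes here stand beside 26.9% of all tested symbols lower in both UAB126 libraries and 22.7% higher. Relative sequencing depth, read from the steps between low values, ran from 0.404 in Vehicle replicate 2 to 1 in UAB126 replicate 1. FPKM summed over all tested symbols came to 5618749 and 11335724 in the Vehicle libraries and to 2297627 and 2770160 in those of UAB126, so the totals stood far apart, Vehicle replicate 2 highest. Albumin (Alb), the most abundant hepatocyte transcript, was listed at 0 in all libraries but Vehicle replicate 2. The other hepatocyte markers with a row of their own were above 0 in every library, such as Ttr (transthyretin) at 19625 to 44092 FPKM. Summed over 16 hepatocyte markers with Alb, levels were 69868 and 129186 FPKM under Vehicle and 40059 and 57842 FPKM under UAB126. Alb adds 32243 FPKM to the sum of Vehicle replicate 2 and nothing to the other sums, so these are not like for like. Of the 16, 8 were lower in both UAB126 libraries and 3 higher. Markers of platelets and megakaryocytes summed to between 4.46 and 7.21 FPKM over 12 genes, with Gp6 listed at 0 in every library. Of 10 tested Kupffer cell and macrophage markers, both UAB126 libraries exceeded both Vehicle libraries for 4 and lay below them for 0. Their median difference in log2(FPKM + 1) was 0.52, all 10 above 0. Summed over the 11 with a row of their own, levels were 110.3 and 327.5 FPKM under Vehicle and 240.9 and 302.2 FPKM under UAB126. Vehicle replicate 1 was thus the lowest of the libraries and Vehicle replicate 2 the highest. Of 8 pericentral hepatocyte markers, 4 were lower in both and 0 higher, with 5 differences below 0 and 3 above. The 4 held Oat at -2.56 ± 0.24 and Glul at -0.72 ± 0.24. They also held Axin2, listed at 96952 and 239373 FPKM under Vehicle and 31318 and 33430 FPKM under UAB126, above Ttr in every library. Whether so high a value reflects Axin2 transcripts was not tested, so its place among the 4 is uncertain. The groups of Slc1a2, Lgr5, Tbx3 and Gulo overlapped, with differences of 0.12, 0.16, 0.37 and -0.06. Of 10 periportal hepatocyte markers, 2 were lower in both UAB126 libraries and 3 higher, near the shares of all tested symbols. The erythroid marker tested, Alas2, was at -1.42 ± 0.22, and none of these passed the threshold. In whole liver, fewer cells of a type and less RNA per cell cannot be told apart, and the part of cell makeup in the differences below was not tested.

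Most of the coagulation and fibrinolysis genes were lower in the livers with UAB126, but none passed the threshold. For 20 of the 31 genes both UAB126 libraries lay below both Vehicle libraries, and for 1, F8, both lay above. Over all tested symbols, both UAB126 libraries were lower in 26.9% and higher in 22.7%. The 10 remaining genes had overlapping groups. Counts by role and by list below have the same background shares of 26.9% and 22.7%. The split rests on the scaling. After quantile normalization 11 were lower and 4 higher, beside 22.9% and 25.6% of all tested symbols. Centred on other plasma proteins, 14 were lower and 8 higher, beside 10.7% and 47.2%. The median difference in log2(FPKM + 1) over the 31 genes, UAB126 minus Vehicle, was -0.42, beside -0.025 over all tested symbols. A difference on this scale slightly understates the change of genes with low values. Among the 3421 tested symbols averaging 20 FPKM or more, 38.4% were lower in both UAB126 libraries and the median was -0.20, and 20 of the 29 genes at that level were lower in both. None of the 31 had a limma adjusted p under 0.05 (Benjamini-Hochberg over all 10786 symbols), a threshold that 0.139% of tested symbols passed (0.0927% lower and 0.0464% higher). The smallest adjusted p among the 31 was 0.267. At an unadjusted p under 0.05, 6 genes were lower, beside 8.38% of all symbols, and 1 was higher, beside 5.03%. The 6 were Kng2, F7, Fgg, Serpina10, Proc and Cpb2, and the 1 was F8. The count of lower genes at that p was 0 without Vehicle replicate 2, 1 without either UAB126 library and 7 without Vehicle replicate 1. The count of higher genes was 0 without UAB126 replicate 2.

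**Figure D1:**
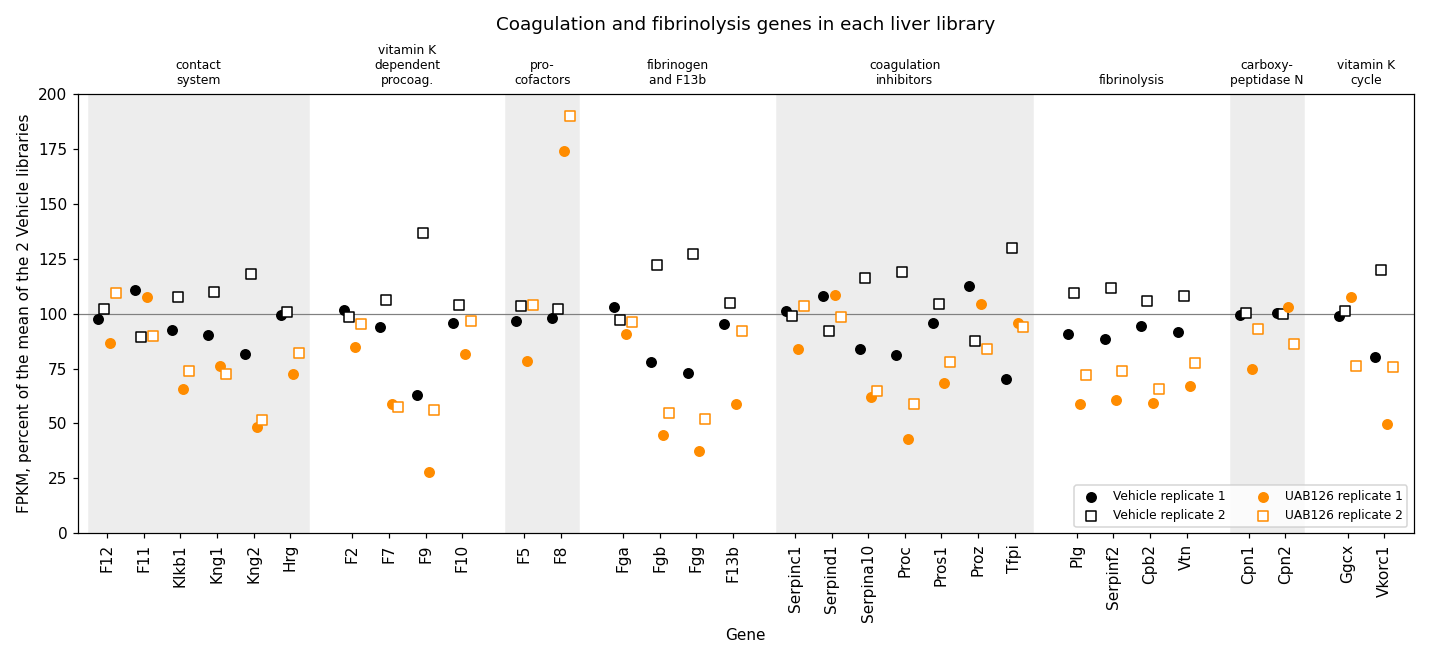
FPKM of each of the 31 genes in the 4 libraries, as a percentage of the mean of the 2 Vehicle libraries, ordered by role (black, Vehicle; orange, UAB126; filled circles, replicate 1; open squares, replicate 2). F8 is the gene with both UAB126 libraries above both Vehicle libraries, while F9, Fgb, Fgg and Proc show wide gaps between Vehicle replicates 1 and 2 as well as low UAB126 values.

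The fibrinogen chains were the most abundant transcripts of the set, and their differences were unequal in size. Fibrinogen is built of an alpha, a beta and a gamma chain, encoded by Fga, Fgb and Fgg side by side on chromosome 3 of mm10, with Fgg at 83007724 to 83015049, Fga at 83026076 to 83033627 and, on the opposite strand, Fgb at 83040141 to 83049863. Fgb stood at 8933 and 14004 FPKM in replicates 1 and 2 of Vehicle, an order kept throughout, against 5118 and 6274 FPKM in those of UAB126. Fgg stood at 4131 and 7184 FPKM without UAB126 and at 2123 and 2939 FPKM with it. In both genes the UAB126 libraries were lower, and replicate 2 was higher than replicate 1 in each group. The log2 differences were -0.98 ± 0.39 for Fgb and -1.12 ± 0.41 for Fgg (limma adjusted p = 0.375 and 0.346), where ± is limma's moderated SE here and below. Fga gave 2005 and 1886 FPKM in the Vehicle livers, against 1766 and 1871 FPKM with UAB126. Its groups were nearly level, with a log2 difference of -0.10 ± 0.28 that turned to 0.48 after quantile normalization, although both UAB126 values lay below the lower Vehicle value.

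Ratios within a library, which multiplying all its values by 1 factor cannot change, set the chains apart. Quantile normalization and removal of the length trend can change them. The ratio of Fgb to Fga was 4.46 and 7.42 in Vehicle and 2.90 and 3.35 with UAB126. That of Fgg to Fga was 2.06 and 3.81 in Vehicle and 1.20 and 1.57 with UAB126. Both ratios were lower in both UAB126 libraries, while Fgb to Fgg overlapped, at 2.16 and 1.95 against 2.41 and 2.13. These pairs, and those given for other genes below, were chosen after their values were seen, and with 2 against 2 libraries an exact two-sided permutation test cannot go below p = 0.333. F13b, the carrier subunit of the factor XIII that crosslinks fibrin, read 168.5 and 185.0 FPKM under Vehicle, then 104.3 and 162.5 FPKM under UAB126. Its UAB126 replicate 2 came close to the Vehicle range, and the log2 difference was -0.44 ± 0.29.

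**Figure D2:**
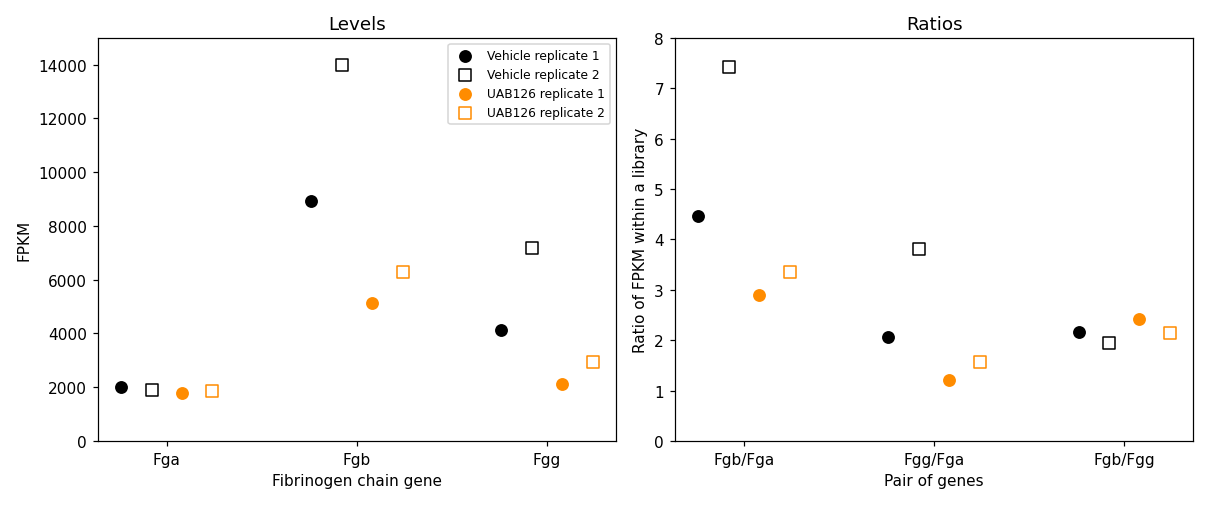
Left, FPKM of the 3 fibrinogen chain genes in each library, and right, the ratio of FPKM between pairs of chains within each library (black, Vehicle; orange, UAB126; filled circles, replicate 1; open squares, replicate 2; both axes linear from 0). Fga stays between 1766 and 2005 FPKM in all 4 libraries, while the ratios of Fgb and Fgg to Fga are lower in both UAB126 libraries.

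The sequences just upstream of the chain genes are shown because the 3 neighbours differed in level, with that of F9, the gene with the largest difference over all 4 libraries. Each line holds the 250 bases before RefSeq's annotated start, which for Fga lies downstream of the start given above, read 5′ to 3′ on the gene's strand from RefSeq's table for GRCm38.p6: chr3:83007474-83007723 (plus strand) for Fgg, chr3:83025903-83026152 (plus) for Fga, chr3:83049864-83050113 (minus) for Fgb and chrX:59999214-59999463 (plus) for F9. Capitals mark matches, on either strand, to an HNF1 half-site (GTTAAT), a C/EBP motif (TTGCNNAA) or a core of the response element for the cytokine IL-6 (CTGGGAA).
Fgg: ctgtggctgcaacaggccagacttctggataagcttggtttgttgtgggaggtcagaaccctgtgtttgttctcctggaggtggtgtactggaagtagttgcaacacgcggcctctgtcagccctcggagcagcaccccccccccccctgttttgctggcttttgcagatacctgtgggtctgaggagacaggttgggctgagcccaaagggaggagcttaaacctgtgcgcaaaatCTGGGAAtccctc
Fga: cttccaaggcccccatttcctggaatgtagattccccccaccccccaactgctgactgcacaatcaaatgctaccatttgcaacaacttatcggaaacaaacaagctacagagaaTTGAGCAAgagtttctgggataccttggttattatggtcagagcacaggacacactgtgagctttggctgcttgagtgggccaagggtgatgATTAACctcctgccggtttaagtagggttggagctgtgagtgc
Fgb: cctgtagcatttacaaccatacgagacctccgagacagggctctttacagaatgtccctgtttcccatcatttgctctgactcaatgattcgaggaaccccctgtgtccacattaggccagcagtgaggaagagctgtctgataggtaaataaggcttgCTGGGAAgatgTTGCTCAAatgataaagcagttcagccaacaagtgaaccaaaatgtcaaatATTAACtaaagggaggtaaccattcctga
F9: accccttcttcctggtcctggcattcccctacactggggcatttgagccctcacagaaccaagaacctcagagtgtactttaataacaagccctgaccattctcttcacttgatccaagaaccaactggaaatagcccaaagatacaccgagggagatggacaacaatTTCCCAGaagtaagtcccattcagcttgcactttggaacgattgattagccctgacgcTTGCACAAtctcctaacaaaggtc
Fgb held one match to each of the 3 motifs, Fga held the HNF1 and C/EBP matches, Fgg held the IL-6 element alone, and F9 held C/EBP and IL-6 element matches. RefSeq's table had a window for 27 of the 31 genes and not for Plg, Serpina10, Kng1 and Proc. The HNF1 half-site was in 6 of the 27 (22.2%), beside 6.52% of all 27025 promoter windows of this length. The C/EBP motif was in 9 (33.3%), beside 9.55% of all. The IL-6 element was in 5 (18.5%), beside 9.08% of all. Over the 7716 windows of tested symbols the shares of these 3 motifs were 4.07%, 7.91% and 9.42%. Of the 16 windowed genes lower in both UAB126 libraries, 5 held the HNF1 half-site, 6 the C/EBP motif and 4 the IL-6 element, against 1, 3 and 1 of the other 11. A FOXA motif (TGTTTAC) was in 4 of the 27, a TATA box (TATAAA) in 4 and an HNF4 motif (TGGACTTNG) in 0, beside 3.09%, 12.97% and 0.851% of all. Over the windows of tested symbols those shares were 2.23%, 6.48% and 0.855%. No matches to different motifs overlapped in the 27 windows, and a match is a description of letters only.

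The vitamin K dependent procoagulants were lower in both UAB126 libraries for 3 of 4 genes, by unequal amounts, and overlapped for F10. F9, for the protease factor IX that is lacking in haemophilia B (chromosome X, 59999464 to 60030759), stood at 509.1 and 1104 FPKM without UAB126 and at 224.5 and 453.0 FPKM with it. Its groups did not overlap, but UAB126 replicate 2 lay close under Vehicle replicate 1, and within each group replicate 2 was about as far above replicate 1 as the groups were apart (1.12 in Vehicle and 1.01 with UAB126 on the log2 scale, against a difference of -1.23 ± 0.52 between groups, limma adjusted p = 0.387). The difference of F9 was -0.67 without Vehicle replicate 2, where those of Fgg, Kng2, Proc, F7 and F8 were larger in size. That of F9 was -0.73 without UAB126 replicate 1 and -0.17 between Vehicle replicate 1 and UAB126 replicate 2 alone. F7, for factor VII, the partner of tissue factor (chromosome 8, 13026034 to 13035809), gave 70.8 and 79.8 FPKM in the Vehicle livers, against 44.2 and 43.4 FPKM with UAB126. Here the replicates lay close together and the groups well apart, with a log2 difference of -0.77 ± 0.20 (limma adjusted p = 0.269).

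F10, for factor X, which makes thrombin from prothrombin, is the neighbour of F7. It read 223.8 and 243.0 FPKM under Vehicle, then 190.0 and 225.1 FPKM under UAB126, with overlapping groups and a log2 difference of -0.17 ± 0.23. F2, for prothrombin itself, stood at 1009 and 980.6 FPKM without UAB126 and at 843.4 and 949.6 FPKM with it, a log2 difference of -0.15 ± 0.26. The ratio of F7 to F10 within a library was 0.316 and 0.329 in Vehicle and 0.233 and 0.193 with UAB126, lower in both UAB126 libraries. Counted with the anticoagulants Proc, Pros1 and Proz, the set holds 7 genes for vitamin K dependent proteins, of which 5 were lower in both UAB126 libraries and 0 higher, with a median difference of -0.44.

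Of the contact system genes, 4 of 6 were lower in both UAB126 libraries and 2 overlapped. Kng2, one of the mouse kininogen genes (chromosome 16, 22985854 to 23029482), gave 277.4 and 400.6 FPKM in the Vehicle livers, against 164.0 and 175.0 FPKM with UAB126. Its log2 difference was -0.97 ± 0.27 (limma adjusted p = 0.276). Kng1, the other kininogen gene and the more abundant one (chromosome 16, 23057865 to 23082078), read 1363 and 1657 FPKM under Vehicle, then 1149 and 1096 FPKM under UAB126, a log2 difference of -0.42 ± 0.28. Kininogens carry bradykinin, a vasodilator peptide, and bind the contact proteases to surfaces. The ratio of Kng1 to Kng2 was 4.91 and 4.14 in Vehicle and 7.01 and 6.26 with UAB126. The paralogs share sequence: of the 75-base windows of the longest annotated transcript, 10.6% of Kng1 windows occur in Kng2 and 10.5% of Kng2 windows in Kng1, so reads there could be divided between them in either way.

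Klkb1, for plasma prekallikrein, stood at 84.1 and 97.7 FPKM without UAB126 and at 59.5 and 67.0 FPKM with it, a log2 difference of -0.51 ± 0.21. Its neighbour and paralog F11, for factor XI, gave 42.5 and 34.3 FPKM in the Vehicle livers, against 41.3 and 34.4 FPKM with UAB126. The groups of F11 covered the same range, while those of Klkb1 were separate. Hrg, for histidine-rich glycoprotein, which binds heparin and plasminogen, read 780.9 and 793.3 FPKM under Vehicle, then 571.2 and 646.1 FPKM under UAB126, a log2 difference of -0.37 ± 0.25. F12, for factor XII, the starter of the contact pathway, stood at 294.7 and 308.5 FPKM without UAB126 and at 261.6 and 329.5 FPKM with it, and its groups overlapped.

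The procofactors F5 and F8 encode related proteins that speed the cascade once thrombin has cut them, and they differed in direction. F8 gave 3.01 and 3.14 FPKM in the Vehicle livers, against 5.36 and 5.84 FPKM with UAB126. Both UAB126 values were higher, and replicates lay close together, with a log2 difference of 0.69 ± 0.18 (limma adjusted p = 0.267). F8 lies on chromosome X at 75172715 to 75382615 and had the lowest level of the 31 genes. F5 read 153.6 and 164.9 FPKM under Vehicle, then 125.1 and 165.4 FPKM under UAB126, with overlapping groups and a log2 difference of -0.14 ± 0.24. Of 14 endothelial markers tested, both UAB126 libraries were higher for 6 (beside 22.7% of all tested symbols) and lower for 0, and 8 overlapped. Their median difference was 0.35, with 12 above 0 and 2, Flt1 and Oit3, below, and none passed the threshold. They summed to 122.7 and 179.8 FPKM under Vehicle and 192.9 and 208.7 FPKM under UAB126, with none listed at 0. Ehd3, a membrane trafficking gene chosen after its values were seen, stood at 13.05 and 13.4 FPKM without UAB126 and at 23.0 and 23.3 FPKM with it. The part of the number of endothelial cells in the difference of F8 was not tested. Parts of F8 and of Fundc2 overlap on opposite strands, as do Plg with Slc22a3 and Serpind1 with Pi4ka, and whether strand was used is not stated. Fundc2 gave 2.49 and 5.34 FPKM in the Vehicle livers, against 2.29 and 3.13 FPKM with UAB126.

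**Figure D3:**
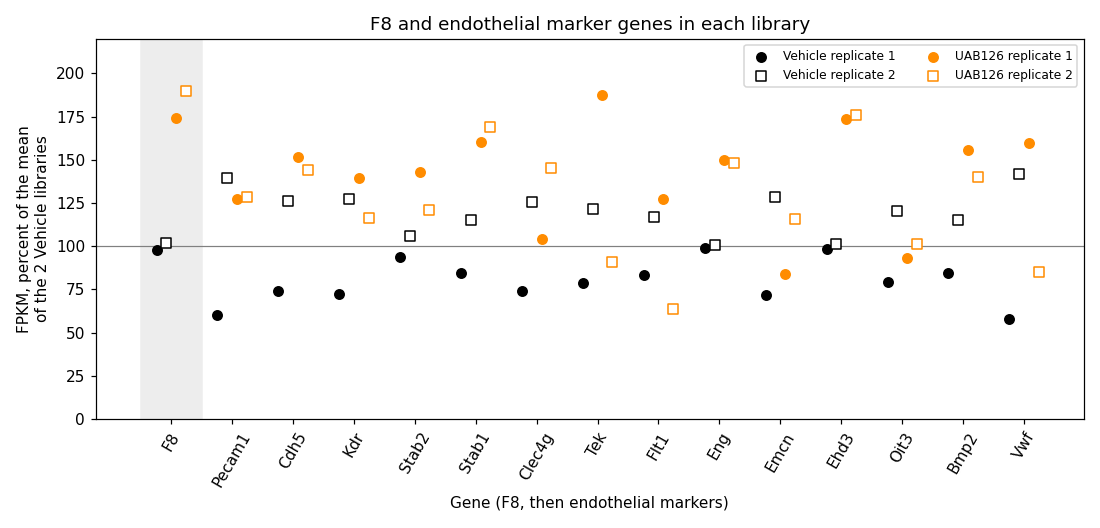
FPKM of F8 (shaded) and of 14 endothelial marker genes in each library, as a percentage of the mean of the 2 Vehicle libraries (black, Vehicle; orange, UAB126; filled circles, replicate 1; open squares, replicate 2). F8, Ehd3 and Eng have tight Vehicle values with both UAB126 values well above, while for 8 of the 14 markers the groups overlap.

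The inhibitors of coagulation were mixed, with 3 of 7 lower in both UAB126 libraries and 4 overlapping. The 3 are 42.9% of the list, beside 26.9% of all tested symbols and 38.4% of those averaging 20 FPKM or more. Proc encodes protein C, the protease that inactivates the procofactors once thrombin has cut them. Proc read 837.9 and 1229 FPKM under Vehicle, then 443.3 and 608.8 FPKM under UAB126. Its log2 difference was -0.96 ± 0.33 (limma adjusted p = 0.326). Pros1, for protein S, the cofactor of activated protein C, stood at 32.1 and 35.1 FPKM without UAB126 and at 23.0 and 26.2 FPKM with it, a log2 difference of -0.44 ± 0.19. Both genes of this system had separate groups. Serpina10, for the protein Z dependent protease inhibitor, gave 120.3 and 167.1 FPKM in the Vehicle livers, against 89.0 and 93.4 FPKM with UAB126, a log2 difference of -0.63 ± 0.25. Its cofactor gene Proz, which lies next to F10, read 129.0 and 100.3 FPKM under Vehicle, then 119.6 and 96.3 FPKM under UAB126. Proz overlapped between groups and was higher in replicate 1 of each.

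The serpin genes for direct thrombin inhibitors had small differences. Serpinc1, for antithrombin, stood at 1625 and 1586 FPKM without UAB126 and at 1350 and 1664 FPKM with it. Serpind1, for heparin cofactor II, gave 247.9 and 210.7 FPKM in the Vehicle livers, against 249.3 and 225.9 FPKM with UAB126. Their log2 differences were -0.10 ± 0.28 and 0.05 ± 0.23, and the groups overlapped in both. Tfpi, for the inhibitor of the tissue factor pathway, made largely by endothelium, read 4.07 and 7.56 FPKM under Vehicle, then 5.57 and 5.46 FPKM under UAB126. The UAB126 values lay between the Vehicle values.

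All 4 genes of fibrinolysis in the set were lower in both UAB126 libraries, both those that dissolve clots and those that protect them, with a median difference of -0.59. After quantile normalization that median was -0.13, and Vtn turned to 0.13. Plg, for plasminogen, stood at 1479 and 1789 FPKM without UAB126 and at 959.5 and 1174 FPKM with it. Serpinf2, for antiplasmin, the inhibitor of plasmin, gave 499.6 and 631.4 FPKM in the Vehicle livers, against 343.4 and 418.0 FPKM with UAB126. The protease and its inhibitor were lower by like amounts, with log2 differences of -0.62 ± 0.29 and -0.57 ± 0.27. Cpb2, for the carboxypeptidase that trims plasminogen binding sites from fibrin, read 305.6 and 341.4 FPKM under Vehicle, then 192.0 and 212.4 FPKM under UAB126, a log2 difference of -0.67 ± 0.23 (limma adjusted p = 0.324). Vtn, for vitronectin, an adhesive protein of plasma and matrix, stood at 1861 and 2192 FPKM without UAB126 and at 1359 and 1574 FPKM with it. Its log2 difference of -0.46 ± 0.29 was the smallest of the 4.

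Carboxypeptidase N, which inactivates kinins and anaphylatoxins, differed little. Its catalytic subunit gene Cpn1 gave 231.9 and 234.0 FPKM in the Vehicle livers, against 174.7 and 216.1 FPKM with UAB126. Its regulatory subunit gene Cpn2 read 87.6 and 87.2 FPKM under Vehicle, then 90.1 and 75.1 FPKM under UAB126. Cpn1 had separate groups and Cpn2 overlapping ones, with log2 differences of -0.26 ± 0.23 and -0.09 ± 0.21.

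The enzymes of the vitamin K cycle also differed from each other. Vkorc1, for the warfarin-sensitive reductase, stood at 311.6 and 463.7 FPKM without UAB126 and at 192.9 and 293.6 FPKM with it. Its log2 difference of -0.67 ± 0.34 shrank to -0.14 once the trend with transcript length was removed, and its longest transcript, of 748 bases, is the shortest of the set. Ggcx, for the carboxylase, gave 22.3 and 22.8 FPKM in the Vehicle livers, against 24.3 and 17.2 FPKM with UAB126, with overlapping groups and a log2 difference of -0.14 ± 0.23. Among further genes that process, export or clear clotting factors, 6 of 18 tested were lower in both UAB126 libraries and 5 higher. These are 33.3% and 27.8%, near the 26.9% and 22.7% of all tested symbols. Furin, the protease that removes propeptides, read 68.6 and 48.3 FPKM under Vehicle, then 92.8 and 95.2 FPKM under UAB126. Asgr1 and Asgr2, the subunits of the hepatocyte receptor that clears desialylated plasma proteins, were lower in both UAB126 libraries, with log2 differences of -0.79 ± 0.29 and -0.75 ± 0.27.

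Other genes of clotting made mostly outside hepatocytes had no common direction. Of 20 listed, 11 were tested, 8 were under the filter and 1, Plau (urokinase), had no row of its own. Among the 11, 2 were lower in both UAB126 libraries and 2 higher, with a median difference of 0.15. F3, for tissue factor, stood at 5.83 and 4.45 FPKM without UAB126 and at 3.63 and 3.24 FPKM with it. F2r, for a thrombin receptor, gave 14.0 and 10.8 FPKM in the Vehicle livers, against 22.2 and 17.8 FPKM with UAB126. F3 and F2r thus had separate groups in opposite directions. S100a10, whose protein binds plasminogen at the cell surface, read 383.0 and 585.3 FPKM under Vehicle, then 234.5 and 258.2 FPKM under UAB126. Adamts13, which cleaves von Willebrand factor, stood at 1.34 and 0.410 FPKM without UAB126 and at 2.38 and 1.86 FPKM with it. Vwf and Thbd (thrombomodulin) had overlapping groups, at 0.612 to 1.69 FPKM and 0.803 to 2.51 FPKM. Plat (tissue plasminogen activator) and F13a1 (the catalytic subunit of factor XIII) had means below the filter, at no more than 1.15 and 0.302 FPKM.

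Further hepatic regulators of clotting and fibrinolysis were mostly lower: of 13 tested, 12 were lower in both UAB126 libraries and 0 higher. Their median difference was -0.56, and -0.17 after quantile normalization. This list shares Serping1 and C4bp with the complement list below, and Ambp with the other plasma proteins. Itih3, which encodes a heavy chain of the inter-alpha-trypsin inhibitors, gave 602.7 and 934.2 FPKM in the Vehicle livers, against 257.9 and 276.9 FPKM with UAB126. Plgrkt, a plasminogen receptor gene, read 9.60 and 11.6 FPKM under Vehicle, then 5.30 and 4.97 FPKM under UAB126. Serping1, for the inhibitor of the contact and complement proteases, stood at 798.8 and 884.9 FPKM without UAB126 and at 402.0 and 472.5 FPKM with it. The log2 differences were -1.49 ± 0.30, -0.91 ± 0.18 and -0.95 ± 0.25, and limma adjusted p was 0.214, 0.211 and 0.270.

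Transcription factors that drive hepatic clotting factor genes were measured too. Of 16 tested, 3 were lower in both UAB126 libraries and 2 higher, with a median difference of -0.028. Hnf4a, a nuclear receptor of the hepatocyte program, gave 123.0 and 121.3 FPKM in the Vehicle livers, against 160.7 and 176.6 FPKM with UAB126. Cebpa, a leucine zipper factor, read 185.3 and 168.6 FPKM under Vehicle, then 121.3 and 129.7 FPKM under UAB126. Onecut1 varied widely, with 16.1 and 4.36 FPKM under Vehicle against 4.75 and 0.695 FPKM under UAB126. IL-6 signalling drives fibrinogen genes in the acute phase, and in that list 4 of 9 tested were above both Vehicle values in both UAB126 libraries and 1 below. Its genes with the smallest p, Jak1, Il6st and Ptpn1, a kinase, the shared receptor subunit and a phosphatase, had log2 differences of 0.53 ± 0.18, 0.58 ± 0.23 and 0.40 ± 0.17. All of these had a limma adjusted p above 0.3, and none passed.

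Other secreted liver proteins had medians close to that of the coagulation genes. Complement proteins had a median difference of -0.37 over 20 tested genes, with 11 lower in both UAB126 libraries and 1 higher. Differences were below 0 for 14 and above 0 for 6. This list shares C1qa and C1qb with the Kupffer cell and macrophage markers, and C1qa had its highest difference, 0.45. C8a, for a chain of the membrane attack complex, stood at 358.6 and 429.9 FPKM without UAB126 and at 224.1 and 179.8 FPKM with it, and Cfd, the protease factor D, at 213.2 and 51.2 against 2.54 and 19.6 FPKM. The other plasma proteins without Alb had a median of -0.41 over 25 tested genes, with 14 lower and 1 higher. Among them Apoa4, an apolipoprotein gene, had the smallest p, with 1021 and 831.4 FPKM under Vehicle against 254.0 and 223.5 FPKM under UAB126 (limma adjusted p = 0.105). Ambp and Serpina1a had log2 differences of -0.75 ± 0.31 and -0.66 ± 0.26. After quantile normalization the medians turned to 0.028 for complement and 0.078 for the other plasma proteins without Alb. The difference of the coagulation genes from these lists was not tested.

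**Figure D4:**
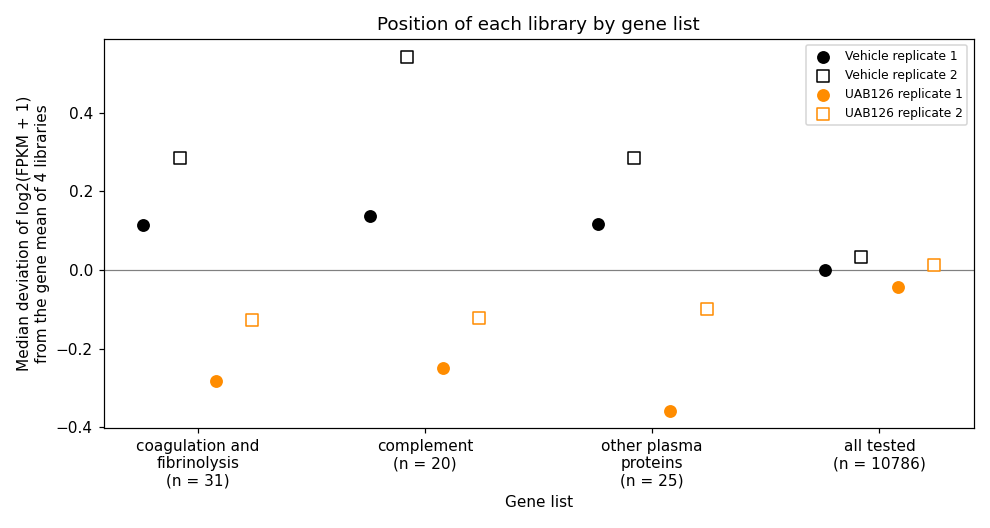
Median deviation of log2(FPKM + 1) from each gene's mean over the 4 libraries, for the 31 coagulation and fibrinolysis genes, 20 complement genes, 25 other plasma protein genes and all 10786 tested symbols (black, Vehicle; orange, UAB126; filled circles, replicate 1; open squares, replicate 2). The coagulation genes lie at 0.11 and 0.29 in Vehicle and -0.28 and -0.13 with UAB126, and the other lists of plasma proteins have the same order of libraries.

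Replicates also differed within groups. Vehicle replicate 2 was above replicate 1 in 24 of the 31 genes, and UAB126 replicate 2 above replicate 1 in 23. The median size of the gap between replicates was 0.21 in Vehicle and 0.26 with UAB126 on the log2 scale, against 0.44 between groups. The group difference was larger than both replicate gaps in 18 of the 31. Transcript length and the group difference had a Spearman correlation of 0.36 across the 31 genes and 0.33 across 9772 tested symbols (genes are not independent replicates). Between Vehicle replicate 1 and UAB126 replicate 2 alone, a pair chosen after seeing the data, the median difference of the 31 genes was -0.26, and 25 of 31 were lower, beside 48.3% of all tested symbols. With the length trend removed the median was -0.28, and 21 genes were lower in both UAB126 libraries and 2 higher, beside 25.1% and 25.7% of all.

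The count also depended on the scaling. After quantile normalization, 11 genes were lower in both UAB126 libraries and 4 higher, beside 22.9% and 25.6% of all tested symbols, and the median was -0.024. Centred on the other plasma proteins of the liver, 14 were lower and 8 higher, beside 10.7% and 47.2% of all, and the median was -0.12, where the median of all symbols moved to 0.27. The 11 lower after quantile normalization and the 14 after centring were all among the 20. F9, Fgg, Fgb, Kng2, Proc, F7, Cpb2, Vkorc1, Serpina10, Plg, Serpinf2, Klkb1, Pros1 and F13b had a difference below 0 under every alternative run, and F8 had one above 0 under every alternative that kept it. For Serpinc1, Fga, F2, F10, F5, F12, F11, Proz, Cpn1, Cpn2, Kng1, Hrg and Vtn the direction turned with quantile normalization.

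**Figure D5:**
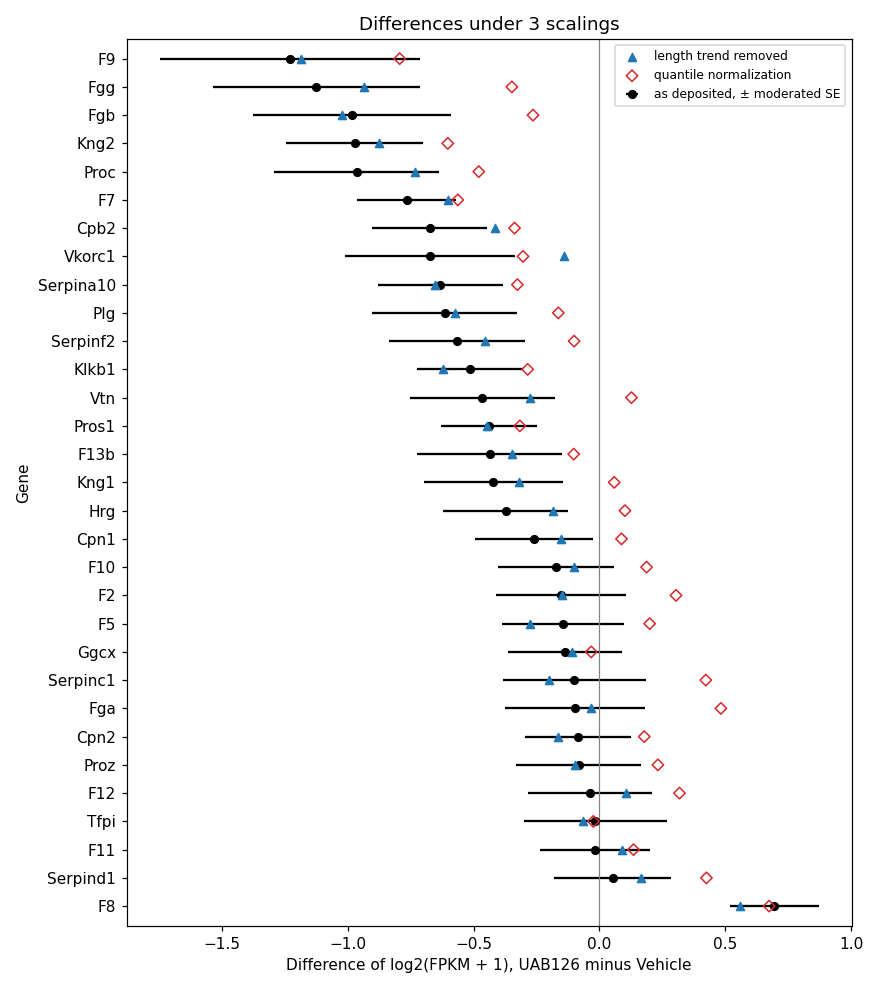
Difference in log2(FPKM + 1), UAB126 minus Vehicle, of each of the 31 genes in order of size, with the values as deposited (black circles, bars of 1 moderated SE), with the length trend removed (blue triangles) and after quantile normalization (open red diamonds). From F9 at -1.23 to F8 at 0.69 as deposited, quantile normalization shifts nearly all genes upward, so that Fga moves from -0.10 to 0.48, while F8 stays at 0.67.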

How the data were processed

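Liver RNA was measured in 2 libraries on the high fat diet (Vehicle) and 2 on the diet with UAB126, by sequencing of polyadenylated RNA from both ends with reads of 75 bases, per the labels' protocols. The authors deposited FPKM values with a column per library. The submitters' processing notes name Cufflinks 2.2.1 with Cuffdiff, the aligner STAR 2.5.1b, the trimmer Trim Galore 0.4.1 and build mm10. Their settings and annotation were not given in the sources used. FPKM values are scaled for depth and length, so no count test was run, and the absolute depth is unknown.

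The table held 27216 rows. The 3634 rows without a symbol were left out and rows of one symbol were summed. Positions and longest transcripts came from GENCODE M21 (GRCm38, also called mm10), which matched the deposited locus for 99.3% of symbols with 1 position. Log2(FPKM + 1) of symbols averaging 1 FPKM or more was fitted with limma 3.58.1 in R 4.3.3 (trend in the prior spread, group as the only term, two-sided, Benjamini-Hochberg adjusted p under 0.05), tested on simulated data. Other values came from numpy 2.4.6 and pandas 2.3.3 under Python 3.11.15.

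The members, their roles and all gene lists were chosen with earlier results of these data known, so lists get counts and medians and no test. All 31 members are named; of the other lists of clotting, complement and plasma protein genes, the 3 with the smallest p among tested genes (none passed the threshold) and 8 fixed genes are, of which 1 is not reported here. Alternatives were the pseudocount, the filter, scaling, a replicate block, the prior spread, the choice of row and leaving out each library. Leaving out rows at 0 in one library and high in another, and keeping only Vehicle replicate 1 and UAB126 replicate 2, were chosen after seeing the data.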

Additional observations from a re-analysis of the deposited data

How the results depend on the processing

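With 2 libraries a group, no age and no second diet, differences between libraries and groups are hard to separate, and depth limits the low genes F8 and Tfpi. The 15 symbols past the threshold became 27 with a pseudocount of 0.1, 0 with no filter, 24 after quantile normalization, 90 centred on other plasma proteins and 0 to 442 with 1 library left out. Of the 31 genes, those lower in both UAB126 libraries numbered 11 after quantile normalization, beside 22.9% of all symbols. With 1 library left out they numbered 22 to 24, where the share of all symbols was also larger, at 34.5% to 44.3% against 26.9%. Those higher numbered 0 with a mean of at least 5 FPKM (which drops F8), beside 20.2% of all symbols. They numbered 4 after quantile normalization (25.6% of all), 2 with the length trend removed (25.7%) and 8 centred on plasma proteins (47.2%). Between Vehicle replicate 1 and UAB126 replicate 2 alone they numbered 6 (51.6% of all). With 1 library left out they numbered 2 to 4 (33.8% to 37.7% of all). The median was -0.024, -0.28, -0.12 and -0.26 under quantile normalization, length trend removal, plasma protein centring and those 2 libraries alone. At an unadjusted p under 0.05, 3 were lower after quantile normalization, 10 with the length trend removed, 3 with the centring and 0 to 7 with 1 library left out, and 0 or 1 higher with 1 library left out and 0 with the filter at 5 FPKM.

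The replicate numbers are not stated to pair libraries, and the Pearson correlation of their deviations over all tested symbols was 0.18. With a replicate block, 148 symbols passed the threshold, 14 of the 31 genes were lower at an unadjusted p under 0.05 (beside 16.1% of all symbols, against 8.38% without it), and F9 had a limma adjusted p of 0.046. It changed no other call among the 31.

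Single genes changed sign as follows, with the cause not tested. After quantile normalization the differences were 0.32 for F12, 0.14 for F11, 0.059 for Kng1, 0.10 for Hrg, 0.30 for F2, 0.19 for F10, 0.20 for F5, 0.48 for Fga, 0.42 for Serpinc1, 0.23 for Proz, 0.13 for Vtn, 0.087 for Cpn1 and 0.18 for Cpn2. With the length trend removed they were 0.11 for F12 and 0.088 for F11. Centred on plasma proteins they were 0.26 for F12, 0.28 for F11, 0.14 for F2, 0.12 for F10, 0.15 for F5, 0.20 for Fga, 0.20 for Serpinc1, 0.21 for Proz, 0.28 for Tfpi, 0.037 for Cpn1, 0.21 for Cpn2 and 0.16 for Ggcx. Between the 2 libraries alone they were 0.16 for F12, 0.0084 for F10, 0.11 for F5, 0.034 for Serpinc1, -0.13 for Serpind1 and 0.35 for Tfpi. With 1 library left out they ran from -0.17 to 0.13 for F11, -0.26 to 0.10 for Proz, -0.063 to 0.17 for Serpind1, -0.39 to 0.36 for Tfpi, -0.20 to 0.13 for F12, -0.35 to 0.055 for F5, -0.25 to 0.051 for Serpinc1, -0.22 to 0.044 for Cpn2 and -0.37 to 0.10 for Ggcx. Leaving a group with 1 library assumes that it varies like the other group.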
